A study of Mus musculus with 24 samples.

Results

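Intronic sites were the open chromatin regions that lie inside protein-coding genes but away from exons and from transcription starts. A peak was intronic where its summit fell inside a protein-coding gene of the GENCODE vM21 basic annotation, outside every annotated exon and more than 2000 bp from every annotated transcription start, on chromosomes 1 to 19. Overlapping peaks of this kind were merged over the libraries, and a region called by at least 2 libraries was kept as a site. The rule gave 90880 intronic sites among 225336 regions built in the same way from all peaks, or 40.3%. Accessibility values played no part in the rule beyond the calls themselves.

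The assay was ATAC-seq of E14 mouse embryonic stem cells, where a transposase cuts and tags DNA that is not wrapped or covered. All 24 libraries came from E14 cells whose CTCF carries an auxin-inducible degron (AID), a tag through which the auxin IAA causes degradation of the protein. The degradation groups were a CTCF AID line labelled overexpressed control, without IAA or with IAA for 12 h, (growth protocol: serum-free medium with LIF, PD0325901 and CHIR99021), and CTCF AID cells labelled as in serum, without IAA or with IAA for 12 h. CTCF AID lines that overexpressed wild type CTCF or mutated CTCF were both treated with IAA for 12 h. CTCF AID cells without IAA received a luciferase hairpin (shluci), shRNA1 or shRNA2 in a Chd4 set and in a Chd8 set. The growth protocol in the labels names the serum-free medium for every sample, the 4 labelled as in serum included, so each result in serum or in both media rests on the sample labels. There were 12 groups, of 2 libraries each. Peak lists measure neither CTCF nor Chd4 nor Chd8, so the extent of degradation and knockdown was not analysed here. The labels name neither the clone, nor the promoter of the overexpressed CTCF, nor the mutation, and nothing in them says that 2 libraries of a group came from separate cultures. Exact p-values therefore measure only the spread between these libraries. In a bulk library, a site that is open in fewer cells and a site that is less open in every cell cannot be told apart.

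Introns of mammalian genes hold many enhancers, the short regulatory stretches from which transcription factors raise transcription of a gene that may be the host or a neighbour. They also hold many binding sites of CTCF, a zinc finger protein that stops the loop-extruding cohesin ring and so sets the ends of chromatin loops. CTCF binding keeps its own site and the flanking nucleosomes in order, and its sites are known to lose accessibility when the protein is removed. CHD4 is the remodelling ATPase of the NuRD complex, which moves nucleosomes and is best known for closing regulatory elements. CHD8 is a related remodeller that binds CTCF and active promoters.

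The CTCF consensus used here is 14 bp long, and a site held it where a window within 250 bp of the summit differed from it in at most 1 base on either strand. Sequences of 3 sites with the consensus are shown first because they were called in every untreated library of both media and in no library of the same lines with IAA, at high rank. Capitals mark the 14 bp that match the consensus on either strand, and the letters are those of the forward strand of GRCm38, read 5′ to 3′. The Ttc39a stretch is chr4:109438073-109438136, the Limd1 stretch is chr9:123504479-123504542 and the Pde4d stretch is chr13:109547724-109547787. In the Limd1 and Pde4d sites the match is on the reverse strand.
Ttc39a: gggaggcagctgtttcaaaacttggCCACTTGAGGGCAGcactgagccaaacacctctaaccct
Limd1: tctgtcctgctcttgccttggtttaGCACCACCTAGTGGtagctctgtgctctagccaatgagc
Pde4d: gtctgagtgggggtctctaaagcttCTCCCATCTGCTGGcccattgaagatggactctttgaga

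A second pair of sequences comes from sites that were called near the top of every list, whatever the treatment. Capitals mark the octamer ATGCAAAT, the motif of POU factors such as OCT4, in the Gm17655 intron, and the motif TCAAGGTCA of the orphan nuclear receptor ESRRB in the Manba intron. Each is the match nearest the summit among the motifs searched below, and both are on the reverse strand. The Gm17655 stretch is chr5:110058205-110058262 and the Manba stretch is chr3:135546840-135546898.
Gm17655: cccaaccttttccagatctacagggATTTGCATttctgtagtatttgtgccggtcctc
Manba: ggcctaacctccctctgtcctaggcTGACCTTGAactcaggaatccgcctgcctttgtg

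The cells showed accessible starts of stem cell genes. A peak lay within 500 bp of a start of Nanog, Esrrb and Tfcp2l1 in 24 of 24 libraries, of Zfp42 in 22, of Prdm14 in 18, of Klf4 in 12 and of Pou5f1 in 6. Of the markers of feeder fibroblasts, Lum had a peak in 0 libraries, Dcn and Col3a1 in 1 each, and Col1a2 in 23. Of the markers of other cells, Afp and Ptprc had a peak in 0 libraries, Alb and Ttr in 1 each, and Myod1 in 13. The deposited lists held between 58408 and 162594 peaks on chromosomes 1 to 19. They called between 16130 (17.7%) and 53603 (59.0%) of the intronic sites per library, fewest in untreated serum replicate 2 and most in wild-type CTCF replicate 1. The depth of the libraries was not given in the sources used here. Lists were therefore cut, within each of 4 sets, to the length of the shortest list of the set by the authors' −log10 p. These lengths were 117123 peaks for the CTCF lines, 78601 for the Chd4 set, 132155 for the Chd8 set and 58408 for the serum set. All shares and calls below are from these equal lists unless the deposited list is named, and values of different sets are not on one scale.

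Intronic sites were short, scattered and mostly not shared by all libraries. Their median length was 403 bp, with 5% under 99 bp and 5% over 1176 bp. They lay in 11939 genes, or 57.4% of the protein-coding genes of chromosomes 1 to 19. The median site was 17.3 kb from the nearest transcription start and 3.01 kb from the nearest exon, in a host gene of 113 kb. It was called by 6 libraries, and 19379 sites (21.3%) were called by exactly 2. All 24 deposited lists called 2141 intronic sites, or 2.36%, against 5.47% over all regions, 3.52% of intergenic regions and 17.1% of regions within 2000 bp of a start. Sites called by exactly 2 libraries had a median length of 172 bp, and sites called by 24 had a median length of 1060 bp.

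Sites were densest 5 to 20 kb from a start and sparser farther away. The part of the genome that satisfied the rule covered 838 Mb, or 34.0% of chromosomes 1 to 19. It held 112 sites per Mb at 2 to 5 kb from the nearest start, 132 per Mb at 5 to 10 kb, 127 per Mb at 10 to 20 kb and 110 per Mb at 20 to 50 kb. The density was 83.7 per Mb at 50 to 100 kb and 58.4 per Mb beyond 100 kb. First introns held 116 sites per Mb and other introns 107 per Mb, and the 2 kinds of intron changed order along the distance. First introns were taken from 1 transcript per gene, and other introns, here and below, are all the remaining eligible sequence. Of all sites, 84077 lay in an intron of that transcript. At 2 to 5 kb first introns held 103.6 per Mb and other introns 116 per Mb, while at 10 to 20 kb first introns held 135 per Mb and other introns 125 per Mb.

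**Figure D1:**
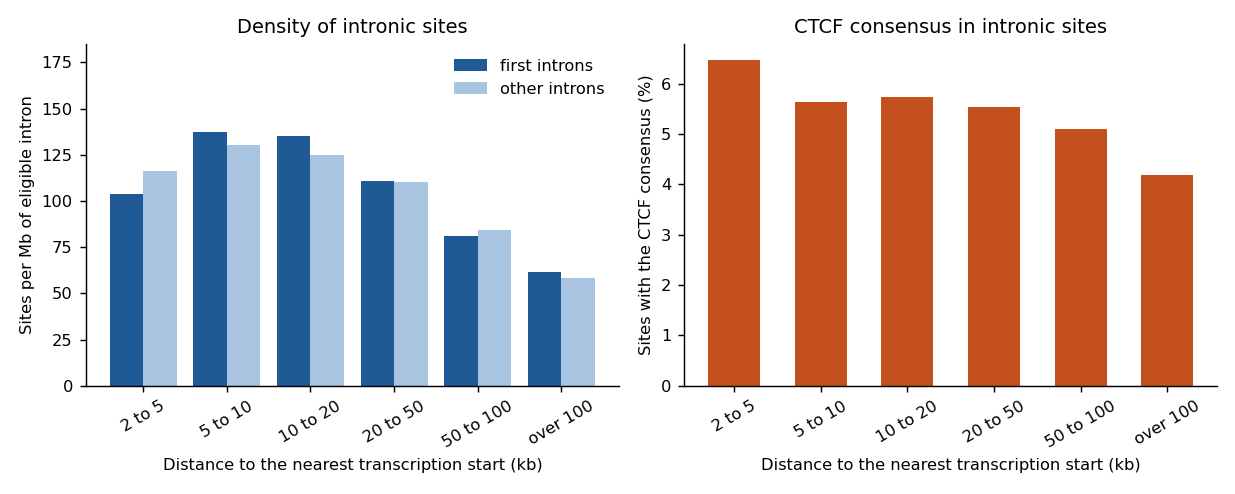
Left, intronic sites per Mb of sequence that satisfies the rule (vertical axis) by distance to the nearest transcription start in kb, for first and other introns. Right, percentage of sites with the CTCF consensus in the same distance classes; density is highest at 5 to 20 kb and the consensus is least frequent beyond 100 kb, at 4.17%.

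The CTCF consensus was found at 5084 intronic sites, or 5.59%, against 1.22% of windows of the same length tiled over the eligible introns. The consensus without mismatch was found at 1.37% of the sites and 0.123% of the windows. The median GC content was 48.3% for the sites, while the eligible bases had 42.4%, and the windows were not matched for it. The share was 6.197% in intergenic regions and 5.67% near starts. It was 6.46% at 2 to 5 kb from a start, 5.09% at 50 to 100 kb and 4.17% beyond 100 kb. Sites in first introns held the consensus in 4.05% and sites in other introns in 6.06%. The consensus lay on the strand of the host gene at 48.6% of the sites that had it (95% Wilson interval 47.2 to 49.96%), slightly less often than on the opposite strand. Intronic summits fell in repeat-masked sequence in 15.4%, against 28.7% of the eligible bases and 24.1% of intergenic summits. Wilson intervals here and below cover counting error over sites only, and sites are not replicates of a treatment.

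Of 8 motifs of other factors, 6 were more frequent in the sites than in windows of eligible intron, and the SOX and GATA motifs were less frequent. These were the windows used above, with a lower GC content than the sites, and its part in the differences was not tested. The KLF motif GGGTGTGG was found at 7.94% of the sites and 3.22% of the windows, and the ESRRB motif at 2.88% and 1.22%. The AP-1 motif TGAGTCA was found at 10.9% and 8.16%, and the TEAD motif ACATTCC at 8.65% and 6.77%. The octamer was found at 4.12% of all sites and 3.83% of the windows, but at 7.24% of the 2141 sites called by every library. The SOX motif CATTGTT was found at 8.66% of sites and 9.29% of windows, and at 11.0% of the sites called by every library. The GATA motif AGATAAGA was less frequent in the sites than in the windows, at 1.90% and 2.55%. The aryl hydrocarbon receptor motif TTGCGTG was found at 1.31% and 1.09%. Each motif was searched as an exact match on both strands, overlapping matches of different motifs were all kept, and a match is a description of the sequence rather than a bound site.

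After CTCF degradation, intronic peaks with the CTCF consensus were a smaller share of intronic peaks in both media, while the intronic share of all peaks differed by less than its spread. Without IAA, 6.54% and 6.63% of the intronic peaks of the 2 control-line libraries held the consensus. After 12 h of IAA the values were 2.61% and 2.60%, below both untreated libraries. The difference was −3.98 percentage points, against a spread of 0.0633. The spread, here and below, is the SD of a difference between 1 library of each group, which is wider than the SD of a difference of group means. In serum, the share was 12.2% and 11.5% without IAA and 3.40% and 3.37% with IAA, again without overlap. This difference was −8.48 points, with a spread of 0.530. With both media in one test, stratified by medium, the mean difference was −6.23 points, with 4 of 4 treated libraries below the untreated ones of their medium (two-sided exact permutation p = 0.0556, the smallest this design allows, adjusted p = 0.528 over 19 tests by Benjamini-Hochberg). In each medium alone the exact p was 0.333, the smallest that 2 against 2 libraries allow. Of the 19 tests of shares, 0 had an adjusted or an unadjusted exact p under 0.05, and with these numbers of libraries none of them could reach it (smallest possible exact p = 0.0556 over both media, 0.0667 in the Chd4 and Chd8 sets and 0.333 elsewhere). The median width of intronic peaks was 360 and 341 bp without IAA and 402 and 343 bp with IAA in the control line, and 350 and 319 bp against 403 and 439 bp in serum, and its part in the result was not tested.

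In the equal-length lists, the intronic share differed between treated and untreated libraries by less than its spread. It was 37.7% and 37.8% without IAA and 38.1% and 37.8% with IAA in the control line, a difference of 0.15 points with a spread of 0.214 (exact permutation p = 0.667). In serum it was 27.6% and 27.9% without IAA and 27.3% and 27.8% with IAA, a difference of −0.13 points with a spread of 0.421 (exact permutation p = 0.667). Over both media the difference was 0.01 points (exact permutation p = 0.944). The direction depended on the lists: at the deposited length the differences were −0.45 points in the control line and 1.90 in serum, and with only peaks of a −log10 q of at least 10 they were −0.92 and 1.61. In the control line the lists of both untreated libraries and of treated replicate 2 reached a −log10 q above 1000, while the list of treated replicate 1 reached 443. Against the lists of its own kind, treated replicate 2 gave a consensus difference of −3.98 points, and an intronic share difference of −0.00043 points. This comparison rests on 1 treated library.

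**Figure D2:**
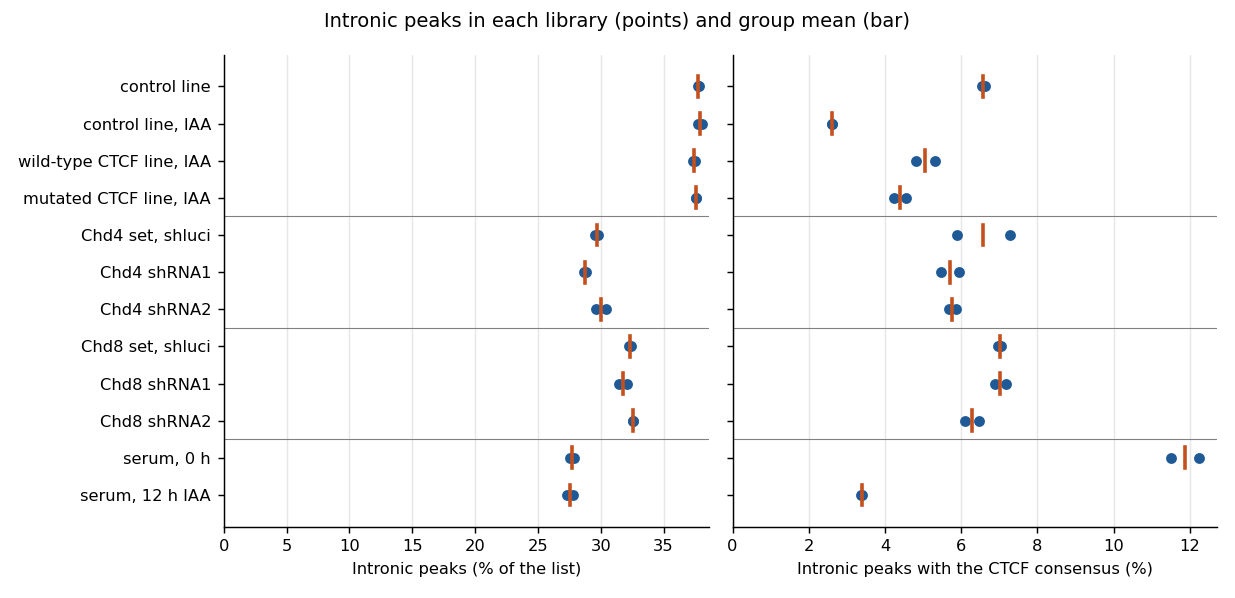
Percentage of peaks that are intronic (left) and percentage of intronic peaks with the CTCF consensus (right) in equal-length lists, by group, with 1 point per library and a bar at the group mean; grey lines part the 4 sets. The consensus share is 2.60% to 2.61% after IAA in the control line and 3.37% to 3.40% in serum, below every untreated library.

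Whether introns responded more or less than intergenic regions depended on the scale. In percentage points, the consensus share of intronic minus intergenic peaks changed by 0.35 in the control line and by −0.37 in serum, and by −0.01 over both media (exact permutation p = 0.944). As a proportion of the untreated share, intronic peaks kept 39.6% and intergenic peaks 45.4% in the control line. In serum, intronic peaks kept 28.5% and intergenic peaks 34.9%. On the log2 scale the intronic share fell further than the intergenic share by 0.20 in the control line (spread 0.0274) and by 0.29 in serum (spread 0.0405), in 4 of 4 treated libraries (two-sided exact permutation p = 0.0556 over both media, the smallest possible). The log2 comparison was added after the shares had been seen.

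A site was called lost where both untreated libraries had it and neither treated library did, and gained in the opposite case. In the control line 3166 of 37253 intronic sites were lost (8.50%, against 7.42% over all regions), and 2389 of 40000 were gained (5.97%, against 5.06%). In serum 1751 of 11471 were lost (15.3%, against 9.60% over all regions), and 1398 were gained (2.00%, against 2.22%). Regions near starts, which the rule leaves out, were lost in 3.56% and 3.24%, and intergenic regions in 8.47% and 12.4%. The counts depended on the lists. At the deposited length, 4091 were lost and 1753 gained in the control line, and 1423 were lost and 2753 gained in serum. With only peaks of a −log10 q of at least 10, 3002 were lost and 687 gained in the control line, and 263 were lost and 946 gained in serum, so in serum gains outnumbered losses under both settings. With 2 libraries against 2, an exact test of a single site cannot go below p = 0.333 (two-sided), so these are counts and not calls of significance.

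Sites with the consensus were lost more often than sites without it, although most lost sites lacked it. The consensus was found in 34.1% of the lost intronic sites of the control line and 44.4% of those in serum, near the 34.1% and 44.2% over lost sites of all regions. Of 2484 intronic sites with the consensus in the control line, 1079 were lost (43.4%, against 36.1% over all regions with the consensus and 38.1% over intergenic ones). Of 34769 intronic sites without it, 6.002% were lost (against 5.26% over all regions without it and 5.97% over intergenic ones). In serum 777 of 1400 sites with the consensus were lost (55.5%, against 42.4% over all regions and 47.3% over intergenic ones). Of 10071 sites without it, 9.67% were lost (against 5.96% over all regions without it and 7.50% over intergenic ones). The frequency of loss followed the match to the consensus. In the control line it was 49.6% without mismatch (95% Wilson interval 45.9 to 53.4%), 41.1% with 1 mismatch (38.9 to 43.4%), 11.9% with 2 and 4.80% with more than 2. In serum the same classes gave 64.2%, 51.5%, 19.7% and 7.12%.

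Peaks of low rank were lost more often than peaks of high rank, with and without the consensus. Peak strength was the percentile of the authors' −log10 p within the list, averaged over the untreated libraries. In the untreated control line the median percentile was 44.3 for intronic peaks, 47.2 for intergenic peaks and 72.1 for peaks near starts (means of the libraries). The part of rank in the losses of these classes was not tested. Among sites with the consensus, 60.6% were lost at percentiles 0 to 25 of the control-line lists, 58.6% at 25 to 50, 40.8% at 50 to 75 and 10.3% at 75 to 100. The corresponding values in serum were 79.7%, 66.7%, 53.4% and 15.3%. Without the consensus, the lowest and highest classes had 15.7% and 0.465% in the control line and 24.9% and 0.933% in serum. Sites with the consensus were lost more often than sites without it in each of the 4 classes in both media.

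**Figure D3:**
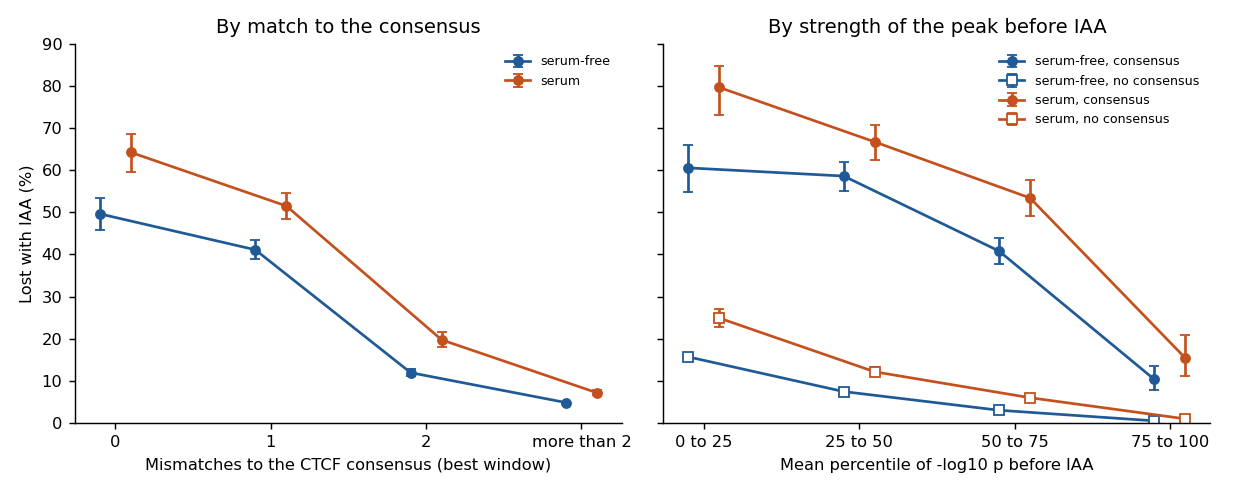
Percentage of intronic sites lost with IAA (vertical axis, with 95% Wilson intervals over sites) by mismatches to the CTCF consensus (left) and by mean percentile of −log10 p before IAA (right), in serum-free medium and in serum. Loss without mismatch is 49.6% and 64.2%, and loss is 10.3% and 15.3% for the strongest sites with the consensus.

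The position of the consensus in the gene was compared next. In first introns 36.3% of 400 sites with the consensus were lost in the control line (95% Wilson interval 31.7 to 41.1%), against 44.8% of 2084 in other introns (42.7 to 47.0%). In serum the values were 50.2% of 235 (43.9 to 56.6%) and 56.6% of 1165 (53.7 to 59.4%), where the intervals overlap. Loss was 43.9% with the consensus on the strand of the gene and 43.1% on the opposite strand in the control line, and 56.6% and 54.4% in serum. It was 54.5% where the consensus centre lay 25 to 50 bp from the summit and 35.2% at 100 to 250 bp in the control line, and 61.3% and 51.0% in serum. A consensus inside repeat-masked sequence was lost in 38.3% against 44.1% outside it in the control line, and in 57.9% against 55.2% in serum, so its direction differed between media.

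The sites lost in both media were mostly sites with the consensus. There were 621 of them, which is 19.6% of the losses in the control line and 35.5% of those in serum, and 384 (61.8%) held the consensus. Over all regions 780 of the 1343 lost in both media held it, so a majority with the consensus is not particular to introns. Counted from the untreated libraries, 1218 intronic sites with the consensus were called by 4 of 4, and 31.5% of these were called by none of the 4 treated libraries. Over all regions this share was 21.05%. Without the consensus the share was 2.66% of 8900 intronic sites, and 1.65% over all regions. Only 33 intronic sites were gained in both media, and 0 of these held the consensus. Over all regions, with and without the consensus, 3.54% of those called by 4 of 4 untreated libraries were lost in both media, and 0.101% of those called by none were gained. The 621 intronic losses come from the 1218 and 8900 sites above, and the intronic share of gains is not given here.

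The 5 highest-ranked sites among those 384 lay in the gene records of Ttc39a, Limd1, Pde4d, Cplx4 and Il17b. Ttc39a encodes a tetratricopeptide repeat protein, and its site spans chr4:109437850-109438568 in intron 12 of 17. Without IAA its −log10 p stood at percentiles 75.7 and 75.4 in the control line and 89.8 and 92.5 in serum, and with IAA no peak was called in any of the 4 libraries, even in the deposited lists. With wild-type CTCF the percentiles were 53.7 and 64.8, and with mutated CTCF 64.7 and 66.5. The 5 sites were chosen for their rank in the untreated libraries, so a lower rank in the CTCF lines is not a finding.

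Limd1 encodes a LIM-domain scaffold protein, and its site spans chr9:123504223-123504831 in intron 2 of 7. It stood at percentiles 82.4 and 80.9 in the control line, 85.6 and 81.8 in serum, 62.5 and 66.7 with wild-type CTCF and 62.6 and 57.04 with mutated CTCF. Pde4d encodes a cyclic AMP phosphodiesterase, and its site spans chr13:109547663-109548210 in intron 3 of 16, 1097752 bp from the start of the gene and 33705 bp from the nearest annotated start. It stood at percentiles 81.1 and 81.0 in the control line, 84.5 and 74.6 in serum, 56.0 and 61.8 with wild-type CTCF and 44.8 and 63.9 with mutated CTCF. Neither site had a peak in the 4 libraries treated with IAA in the control line and in serum.

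Cplx4 and Il17b are on chromosome 18 and encode a complexin of synaptic vesicle release and a cytokine. The Cplx4 site stood at percentiles 87.9 and 86.4 in the untreated control line and 92.5 and 68.6 in untreated serum. It stood at 68.7 and 72.4 with wild-type CTCF and at 74.3 and 69.7 with mutated CTCF. The Il17b site stood at 81.7 and 82.9 in the control line and 77.3 and 72.3 in serum, at 64.7 and 59.6 with wild-type CTCF, and at 46.7 in 1 of 2 libraries with mutated CTCF. The gene record of Il17b reaches beyond its basic transcripts. Its site lies 184 bp from the start of that record, in no numbered intron, and 2864 bp from the nearest annotated start and exon.

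The 3 sites with the highest mean rank over all 24 libraries were chosen by that rank and lay in introns of Dtd1 (chr2:144714846-144715821), which encodes a deacylase of mischarged tRNA, of the predicted gene Gm17655 (chr5:110057522-110058427) and of Manba (chr3:135545934-135547635), which encodes lysosomal beta-mannosidase. Over the 24 equal-length lists the Dtd1 site lay at percentiles 96.8 to 99.9, the Gm17655 site at 94.4 to 99.9 and the Manba site at 93.9 to 99.98. None of these 3 sites had a window with 2 or fewer mismatches to the CTCF consensus. The 2 sites gained in both media with the highest rank lay in Abca13 (chr11:9318448-9319202), which encodes an ATP-binding cassette transporter, and in Naaladl2 (chr3:25125056-25125896). With IAA the Abca13 site stood at 55.9 and 42.3 in the control line and 47.6 and 63.0 in serum, and untreated replicate 1 in serum called it at percentile 3.75 of the deposited list. The Naaladl2 site stood at 43.7 and 36.7 in the control line and 57.1 and 70.0 in serum, and it was also called without IAA in the Chd4 and Chd8 sets.

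**Figure D4:**
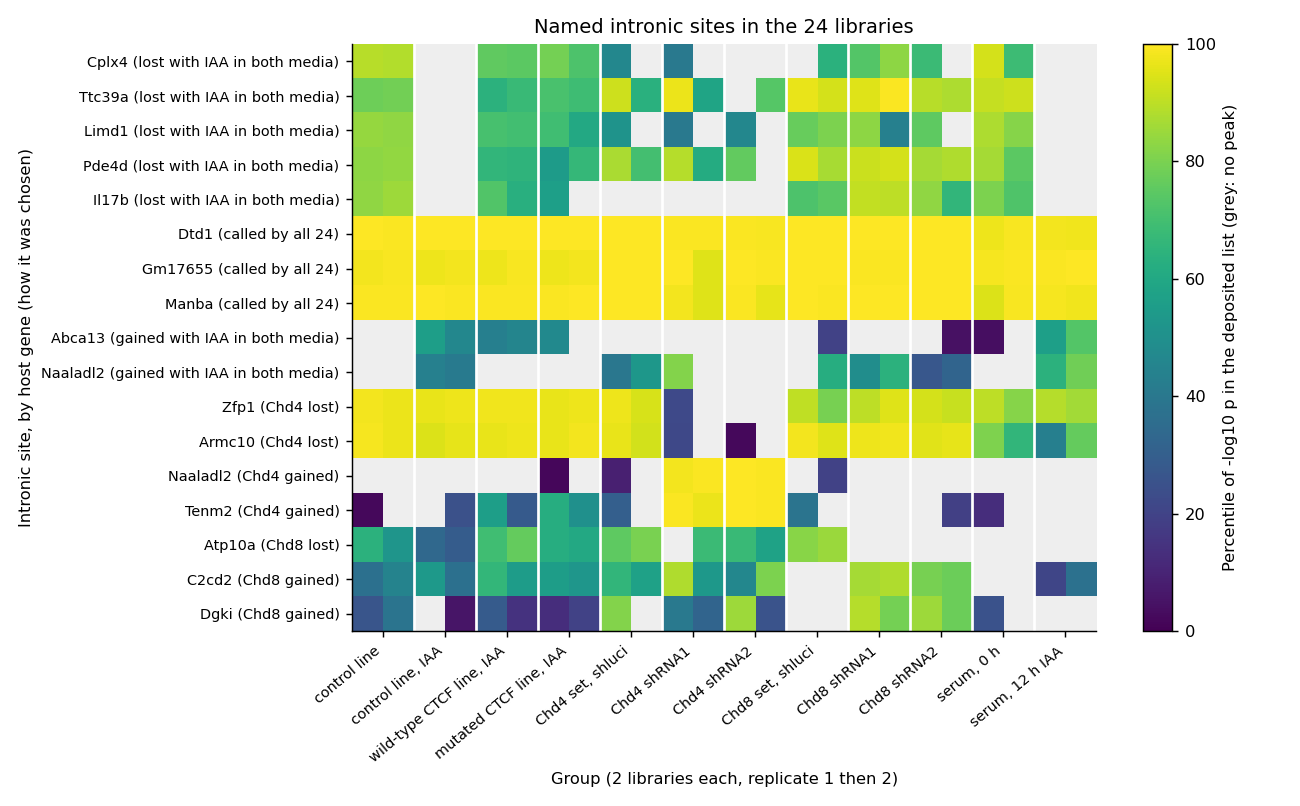
Percentile of the authors' −log10 p within the deposited list (colour, grey where no peak was called) for the named intronic sites (rows, by host gene and how they were chosen) in 24 libraries (columns, 2 per group). The 5 sites lost with IAA in both media have no peak in the 4 treated libraries of the control line and of serum, and peaks in at least 3 of the 4 libraries with overexpressed CTCF.

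With overexpressed CTCF, the consensus share of intronic peaks lay between those of the untreated and the treated control line. With IAA, 5.31% and 4.81% of intronic peaks held the consensus with wild-type CTCF and 4.55% and 4.24% with mutated CTCF, against 2.61% and 2.60% in the control line. The difference from the control line was 2.46 points for the wild-type line (spread 0.351) and 1.79 points for the mutated line (spread 0.220). Both lines stayed below the 6.54% and 6.63% of the untreated control line. The wild-type line lay above the mutated line by 0.67 points, with a spread of 0.414 and no overlap (exact permutation p = 0.333 for each of these 3 comparisons, the smallest possible). Lists that reached a −log10 q above 1000 and lists that did not gave 0.76 and 0.57 points for this difference. They gave 2.71 and 2.21 points for the wild-type line and 1.95 and 1.64 points for the mutated line against the control line.

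The intronic share of peaks was lower in both lines than in the treated control line. It was 37.3% and 37.5% with wild-type CTCF and 37.6% and 37.6% with mutated CTCF, against 38.1% and 37.8%. The differences were −0.48 points (spread 0.237) and −0.32 points (spread 0.213), each with exact permutation p = 0.333. At the deposited length of the lists both differences were positive, at 0.28 and 0.39 points. The sign of both therefore depended on the length of the lists.

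Of the 1079 intronic sites with the consensus that were lost with IAA in the control line, 459 (42.5%) were called by both wild-type libraries and 334 (31.0%) by both mutated libraries. All 4 libraries called 252 of them, and none called 188 (17.4%). Both wild-type libraries and no mutated library called 65, and the opposite pattern held for 12. Of the 2087 lost sites without the consensus, 31.2% were called by both wild-type libraries and 25.2% by both mutated ones. Both kinds of lost site were chosen for their absence from the treated control line. Their return is not given over all regions, so nothing particular to introns can be read from it. Against the treated control line, the wild-type line gained 521 of 3378 intronic sites with the consensus that the control line lacked (15.4%, against 15.8% over all regions with the consensus), and the mutated line 371 (10.98%, against 11.3%), both near the share over all regions. Over all intronic sites, the wild-type line gained 5.40% and lost 5.59%, against 5.00% and 4.61% over all regions. The mutated line gained 4.87% and lost 4.56%, against 4.43% and 3.74%. At the deposited length the wild-type line gained 3436 sites and lost 1166, and the mutated line gained 3108 and lost 1098. The wild-type line compared with the mutated line gained 3.30% and lost 4.33%, against 2.93% and 3.55%. All these comparisons share the treated control libraries or the line libraries.

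In the Chd4 set, the libraries of both hairpins together differed from shluci in the intronic share by less than its spread. They also differed from shluci in which intronic sites were called. The intronic share of peaks was 29.8% and 29.5% with shluci, 28.7% and 28.8% with shRNA1 and 30.4% and 29.6% with shRNA2. The 4 shRNA libraries differed from the 2 shluci libraries by −0.30 points, with a spread of 0.828 (exact permutation p = 0.733). Taken alone, both shRNA1 libraries lay below both shluci libraries, with a mean of 28.7% (SD 0.0864) against 29.7% (SD 0.185). The shRNA2 libraries overlapped with shluci, with a mean of 30.0% (SD 0.526). Single hairpins were not tested. Over the same lists the share of peaks near starts was 30.7% to 31.2% with shluci and 22.1% to 27.4% with the shRNAs, and the median width of intronic peaks was 131 and 139 bp against 100 to 108 bp. The part of these list-wide differences in the intronic results was not tested. Replicate 1 lists held 132068 to 138179 peaks before they were cut and replicate 2 lists 78601 to 90558.

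Many intronic sites called by both shluci libraries were missing with each Chd4 hairpin. With shRNA1, 25.02% of 12192 were lost, and with shRNA2 27.5% were, against 20.3% and 23.3% over all regions. Gains were 3.85% and 4.11% of the intronic sites, against 5.18% and 5.26% over all regions. With only peaks of a −log10 q of at least 10, the sites that changed numbered 1698 and 1721, against 5568 and 6044. All 4 shRNA libraries lacked 1767 sites that both shluci libraries had (14.5%, against 11.4% over all regions and 12.7% over intergenic ones). All 4 had 769 sites that both shluci libraries lacked (1.17%, against 1.71% over all regions and 2.39% over intergenic ones).

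The composition of intronic peaks differed between Chd4 shRNA and shluci libraries in repeats, position, base composition and several motifs. Summits in repeat-masked sequence were 15.2% and 16.1% of intronic peaks with shluci and 17.4% to 18.5% with the shRNAs. The median distance to a start was 17.6 and 18.0 kb with shluci and 19.7 to 21.4 kb with the shRNAs. First introns held 24.7% and 24.5% of intronic peaks with shluci and 22.4% to 23.8% with the shRNAs. The octamer was found in 4.71% and 4.80% with shluci and in 5.55% to 6.09% with the shRNAs. The SOX motif was found in 8.96% and 9.10% with shluci and 8.27% to 8.88% with the shRNAs, the AP-1 motif in 11.1% and 11.4% against 10.7% to 11.04%, and the GATA motif in 1.85% and 1.89% against 2.02% to 2.17%. The median GC content was 48.3% and 48.5% against 47.3% to 48.1%. The ESRRB, KLF, TEAD and aryl hydrocarbon receptor motifs overlapped between the groups. In each of the other 8 of 12 measures all 4 shRNA libraries lay on one side of both shluci libraries. In intergenic peaks the AP-1 and GATA motifs overlapped, and masked sequence and the octamer differed in the same direction as in introns, from 22.0% and 23.6% to 25.3% to 28.8% in masked sequence and from 5.99% and 6.04% to 7.50% to 8.03% with the octamer. The measures were chosen after the counts of sites had been seen, and they carry no p. In the Chd8 set all 12 measures overlapped between shRNA and shluci libraries for intronic peaks.

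The 769 sites gained with Chd4 hairpins lay in long genes, with a median host of 195 kb against 113 kb for the 65470 sites called by no shluci library, from which gains are drawn. Of the gained sites, 21.7% had a masked summit (against 15.6%), 7.93% held the octamer (against 3.88%) and 4.94% held the CTCF consensus (against 4.77%, near that background). The gained sites were called by a median of 10 libraries and the 65470 by a median of 4, which was not matched. Sites called by all 24 libraries also held the octamer often (7.24%, against 4.12% of all sites), in hosts of 151 kb at the median. The 1767 lost sites lay 14.01 kb from a start at the median, against 17.3 kb for the sites called by both shluci libraries. The octamer was found in 4.24% of the lost sites against 5.38%, and the CTCF consensus in 5.60% against 7.11%.

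Among intronic peaks of the Chd4 set, 7.27% and 5.89% held the CTCF consensus with shluci, 5.93% and 5.47% with shRNA1 and 5.86% and 5.69% with shRNA2. The difference was −0.84 points with a spread of 0.999, and the groups overlapped (exact permutation p = 0.133). It was −1.38 points within replicate 1 and −0.31 points within replicate 2. Without shluci replicate 1 the difference was −0.15 points, so this library decides its size. Intergenic peaks held the consensus in 7.62% and 6.67% with shluci and in 5.21% to 5.66% with the shRNAs, without overlap, a comparison chosen after the values were seen. With only the peaks of a −log10 q of at least 10, the intronic difference was 0.95 points.

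The named sites of the Chd4 set were chosen for their high rank in the shluci or the shRNA libraries. The 2 lost sites lay in intron 1 of Zfp1 (chr8:111648540-111649319), a zinc finger gene, and intron 3 of Armc10 (chr5:21651694-21652770), an armadillo repeat gene. The Zfp1 site stood at percentiles 95.8 and 93.0 with shluci, and in the deposited lists it had a peak at percentile 22.1 in 1 of the 4 shRNA libraries. The Armc10 site stood at 94.4 and 92.3 with shluci, and at percentiles 21.5 and 2.15 of the deposited lists of replicate 1 of each hairpin. Both sites were called in all 8 libraries of the CTCF lines, at percentiles of 94.8 to 98.3.

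The 2 gained sites of the Chd4 set lay in intron 5 of Naaladl2 (chr3:24300553-24300863), a peptidase-like gene, and intron 2 of Tenm2 (chr11:37074938-37075756), which encodes a teneurin adhesion protein. The Naaladl2 site stood at 96.6, 99.3, 99.8 and 99.4 in the 4 shRNA libraries, and its summit is in repeat-masked sequence. No equal-length list outside these 4 called it. The Tenm2 site stood at 98.8, 96.8, 99.8 and 99.5. It was also called in 5 of the 8 libraries of the CTCF lines, at percentiles of 19.4 to 53.7, and in 3 libraries of the Chd8 and serum sets, at 0.662 to 29.4.

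In the Chd8 set, with both hairpins together, neither the intronic share nor the consensus share differed beyond its spread. The intronic share was 32.4% and 32.3% with shluci, 31.5% and 32.1% with shRNA1 and 32.60% and 32.59% with shRNA2. The 4 shRNA libraries differed by −0.14 points, with a spread of 0.547 (exact permutation p = 0.867). The 2 hairpins lay on opposite sides of shluci, shRNA1 at −0.55 points and shRNA2 at 0.26 points, without overlap. The CTCF consensus was found in 7.04% and 6.97% of intronic peaks with shluci, 7.17% and 6.88% with shRNA1 and 6.45% and 6.09% with shRNA2. The difference was −0.36 points, with a spread of 0.477 and overlapping groups (exact permutation p = 0.400).

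With Chd8 shRNA1, 11.3% of 19637 intronic sites were lost and 3.38% were gained, against 8.90% and 3.27% over all regions. With shRNA2, 9.16% were lost and 4.97% were gained, against 7.27% and 5.03%. With only peaks of a −log10 q of at least 10, the sites that changed numbered 578 and 886, against 3883 and 4252. All 4 shRNA libraries lacked 874 sites that both shluci libraries had (4.45%, against 3.44% over all regions and 4.10% over intergenic ones). They shared 415 sites that both shluci libraries lacked (0.840%, against 0.847% over all regions), a share at the background. The lost sites were called by a median of 7 of the 24 libraries, against 18 for sites called by both shluci libraries. The rule keeps lost sites out of the equal lists of the 4 shRNA libraries, which can lower their number.

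A named lost site of the Chd8 set lay in intron 1 of Atp10a (chr7:58684180-58684833), a phospholipid flippase gene. The Atp10a site stood at percentiles 79.6 and 81.6 with shluci and was called by 0 of the 4 shRNA libraries. The named gained sites lay in intron 4 of C2cd2 (chr16:97889196-97889898) and intron 1 of Dgki (chr6:37222096-37222989), a diacylglycerol kinase gene. The C2cd2 site stood at 83.9, 86.9, 78.8 and 77.4 in the 4 shRNA libraries, and the Dgki site at 86.8, 76.8, 84.9 and 77.4. These 3 sites were also called in libraries of the CTCF lines.

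**Figure D5:**
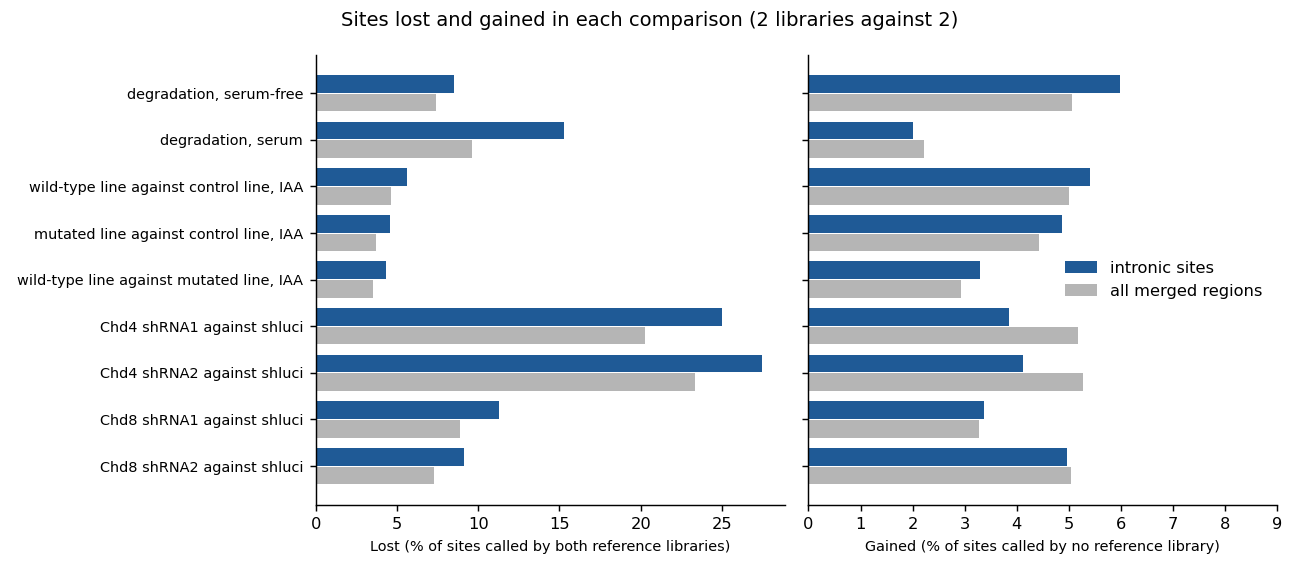
Percentage of sites lost (left) and gained (right) in 9 comparisons of 2 libraries against 2, for intronic sites (blue) and for all merged regions (grey). Intronic losses exceed those of all regions in each comparison, and intronic gains with Chd4 hairpins are 3.85% and 4.11% against 5.18% and 5.26%. Losses of intergenic regions, not drawn, also exceed those of all regions in each comparison. Regions near starts, which are part of all regions, are lost less often.

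Sites were spread unevenly over genes. The median host gene had 4 sites, 2670 genes had 1, and 1098 genes with at least 20 sites held 42.4% of all sites. Over all eligible intron there were 10.9 sites per 100 kb. The genes with most sites were Gm20388 with 229, Pde4d with 183, Tenm4, a teneurin gene, with 148, Fgfr2 with 136 and Pard3, a polarity gene, with 133. The gene record of Gm20388 spans 4435 kb and that of Fgfr2 2961 kb in this annotation, so their sites include ones that other gene models would place between genes. Gene records longer than 2 Mb held 649 sites, or 0.714%. Per length, Pard3 had 25.5 sites per 100 kb, Tenm4 21.8, Pde4d 12.6, Gm20388 6.44 and Fgfr2 5.31.

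Of the 5084 sites with the consensus, 1472 (29.0%) were lost in 1 or both media, in 1285 genes, and 25 genes held at least 3 of them. The genes named next were picked for the number of such losses. Gm20388 had 13 sites with the consensus that were lost in either medium, of 27 with the consensus. Wwox, a large tumour suppressor gene at a fragile site, had 4 of 11, Nav2, a neuron navigator gene, 4 of 9, Syn3, a synapsin gene, 4 of 5, and Pde4d 3 of 8. Pde4d was tied with the rest of those 25 genes, which also had 3.

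Genes of the naive pluripotency list, which keep stem cells in their ground state, had dense intronic sites. Of 14 genes, 11 had at least 1 site, with 123 sites in all and 30.1 per 100 kb. Esrrb, the nuclear receptor that sustains self-renewal, had 41, Nr5a2, a receptor that binds similar sequences, had 29, and Tfcp2l1, a grainyhead-like factor, had 18. Pou5f1, Sox2 and Klf2 had 0, with at most 0.532 kb of eligible intron each. Of 69 sites called by both untreated control-line libraries, 6 were lost with IAA (8.70%), near the 8.50% of all intronic sites, and 0 of the 6 held the CTCF consensus. In serum 3 of 21 were lost (14.3%, against 15.3%). Both shluci libraries of the Chd4 set called 27, of which 6 were lost in all 4 shRNA libraries (22.2%, against 14.5% of all intronic sites), 4 of them in Esrrb, 1 in Nr5a2 and 1 in Tet2. None was gained among 71.

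Genes of the Wnt pathway, which the inhibitor CHIR99021 of the culture medium activates, had sites in 12 of 12 genes, at 23.2 per 100 kb. Tcf7l1, the repressor that acts on pluripotency genes, had 43, Gsk3b, the kinase that CHIR99021 inhibits, 36, and Tcf7l2, a transcription factor of the same family, 36. The number of these sites called by all 24 libraries was 0, against 2.36% of all intronic sites. Of 139 sites, 10 were lost with IAA in the control line (7.19%, against 8.50% of all intronic sites), 3 of them with the consensus, and 3 of 24 in serum (12.5%, against 15.3%). Of 27 in the Chd4 set, 6 were lost in all 4 shRNA libraries (22.2%, against 14.5%).

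Genes of the FGF and ERK pathway, which the inhibitor PD0325901 of the medium blocks, had 252 sites in 11 of 13 genes. Fgfr2 held 136 of these, and the whole list had 8.38 sites per 100 kb. Spred2, an inhibitor of ERK signalling, had 32 (34.1 per 100 kb), Sos1, an exchange factor for RAS, and Etv5, a transcription factor downstream of ERK, had 20 each, and Fgfr1, the receptor, had 17. Of 118 sites, 9 were lost with IAA in the control line (7.63%, against 8.50% of all intronic sites) and 4 of 39 in serum (10.3%, against 15.3%), and of 33 in the Chd4 set 10 were lost in all 4 shRNA libraries (30.3%, against 14.5%), 6 of them in Fgfr2.

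Genes of CTCF and cohesin had 119 sites in 11 of 12 genes, or 13.5 per 100 kb. Stag1, a cohesin subunit, had 34, Pds5b, a cohesin regulator, 18, and Ctcf itself 5. Of 32 sites called by both untreated libraries 1 was lost (3.13%, against 8.50% of all intronic sites), in Wapl, which encodes the cohesin release factor, and 1 of 6 was lost in serum (16.7%, near the 15.3% of all intronic sites). Of 67 sites called by neither untreated library of the control line, 9 were gained with IAA (13.4%, against 5.97%), and of 94 in serum 3 were gained (3.19%, against 2.00%).

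Genes of CHD remodellers and NuRD had 238 sites in 16 of 18 genes, or 21.3 per 100 kb. Chd7 and Mta3, a NuRD subunit, had 40 each, and Chd2 and Chd9 had 29 each. Chd4 had 4 sites and Chd8 had 6, and none of these was lost or gained with IAA in either medium or in all 4 shRNA libraries of a Chd set. Of 37 sites of the list in the Chd4 set, 5 were lost in all 4 shRNA libraries (13.5%, against 14.5% of all intronic sites). With IAA, 5 of 75 were lost in the control line (6.67%, against 8.50%) and 7 of 36 in serum (19.4%, against 15.3%), so the list lay below all intronic sites in one medium and above them in the other.

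Long neuronal adhesion and synapse genes had many sites at low density. Their 14 genes held 888 sites, or 4.50 per 100 kb, from 2.70 in Csmd1 to 10.7 in Auts2, a gene linked to neurodevelopmental disorder. Cdh13, a cadherin gene, had 91 sites, or 8.96 per 100 kb. The list gained 18 of 613 sites with Chd4 hairpins (2.94%, against 1.17% of all intronic sites), 4 of them in Lrp1b, 3 in Nrxn3 and 2 each in Csmd1, Cdh13, Dlg2 and Ptprd. It lost 17 of 150 (11.3%, against 14.5%), 7 of them in Auts2. With IAA it lost 20 of 225 in the control line (8.89%, against 8.50%) and 16 of 125 in serum (12.8%, against 15.3%).

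Genes of DNA methylation and its removal had 93 sites in 7 of 8 genes, or 23.7 per 100 kb. Tet1, a dioxygenase that oxidises methylcytosine, had 27, Dnmt3a, a de novo methyltransferase, 22, and Dnmt1, the maintenance enzyme, 11. Of 50 sites, 3 were lost with IAA in the control line, 1 each in Dnmt3a, Dnmt3b and Tet1, a share below the 8.50% of all intronic sites, and 0 of 13 in serum (against 15.3%), too few for a comparison. Of 16 in the Chd4 set, 4 were lost in all 4 shRNA libraries, 2 of them in Tet1, against 14.5% of all intronic sites. The genes of these lists are described by counts, and no list was tested against the others.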

How the data were processed

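ATAC-seq peak lists of 24 libraries (12 groups of 2, grouped by title and treatment) were used. Peak names inside the lists of treated serum replicates 1 and 2 carry other replicate numbers (rep2 and rep4); the sample labels were followed. Per the submitters' processing notes, reads were handled with Trim Galore, Bowtie2, MACS2 and deepTools on mm10; roles, versions and depth were not given in the sources used here. The deposited narrowPeak columns give, per peak, a score, a fold (ratio of signal over background) and −log10 p and −log10 q, all the authors' values; here −log10 p ranked peaks within a list, −log10 q served for a stricter setting and the score was not used.

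Chromosome lengths of GRCm38.p6 held every peak. Classes came from GENCODE vM21 basic; gene bodies are gene records, which can exceed the basic transcripts. Analyses ran in Python 3.11.15 with numpy 2.4.6, pandas 2.3.3, scipy 1.17.1 and matplotlib 3.10.9, and were checked on simulated data. Lists were cut to the shortest of each set by −log10 p. Shares per library were compared by exact permutation, adjusted over 19 tests by Benjamini-Hochberg; Wilson intervals are at 95%. Members, gene lists and tests were chosen with earlier results of these data known. Named sites ranked highest by percentile of −log10 p, averaged over the libraries that define their choice: 5 with the consensus lost in both media, 3 called by all 24 lists, 2 gained in both media, and for each Chd set 2 lost and 2 gained in all 4 shRNA libraries. Named genes were the 5 with most sites, 5 with most lost sites with the consensus (the last, Pde4d, tied with other genes) and members of the gene lists. Alternatives were the deposited length, lists at 50% of the shortest, −log10 q of at least 10, 5000 bp from a start, other mismatches (0 and 2) and windows (50 bp), peaks that cover 50% of the site's central window, at least 4 libraries, single libraries left out and a replicate block. Sequences of chromosome 18 and 1 of the named sites of the Chd8 set are not reported here.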

Additional observations from a re-analysis of the deposited data

Results flagged for a closer look

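Intronic share with Chd8 hairpins. Both shRNA1 libraries lay below both shluci libraries (−0.55 points) and both shRNA2 libraries above them (0.26 points), and the 2 effects differed by −0.81 points. The groups moved in opposite directions in every library, and the difference was not tested.

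Consensus share of intronic minus intergenic peaks after CTCF degradation. Both treated libraries lay above both untreated ones in the control line (0.35 points) and below both in serum (−0.37 points), a difference of 0.72 points between the media that was not tested, between sets that are not on one scale. In serum the direction was the opposite with only peaks of a −log10 q of at least 10 (0.13) and with the consensus without mismatch (0.0265). On the log2 scale both media moved downwards, by 0.20 and 0.29.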

How the results depend on the processing

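The lower consensus share with IAA kept its direction under each alternative run: in the control line it was −4.02 to −3.93 points with any 1 library left out, in serum −8.86 to −8.11 and over both media −6.42 to −6.04. The gain was 2.21 to 2.71 for the wild-type line, 1.64 to 1.95 for the mutated line and 0.42 to 0.91 between them. For Chd4 it was −1.53 to −0.15 and for Chd8 −0.53 to −0.17, and with −log10 q of at least 10 the Chd4 difference was 0.95.

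The percentage of sites lost moved with the definition of the consensus. Without mismatch, 49.6% of sites with it and 7.74% of sites without it were lost in the control line, and 64.2% and 13.3% in serum. With at most 2 mismatches these were 21.3% and 4.80%, and 34.3% and 7.12%, so sites with the consensus were lost more often under each.

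The intronic share depended on list length. At the deposited length the difference was −0.45 in the control line, 1.90 in serum, 0.28 for the wild-type line and 0.39 for the mutated line. With −log10 q of at least 10 these were −0.92, 1.61, 0.87 and 0.64, with 0.23 between the lines and 0.21 for Chd8. At 50% of the shortest list it was −0.22 over both media, 0.15 between the lines, 0.0375 for Chd4 and 0.00832 for Chd8. More than 5000 bp from a start it was 0.31 for Chd4. With 1 library left out it ranged from −0.00043 to 0.30 in the control line, −0.39 to 0.12 in serum, −0.12 to 0.14 over both media, −0.63 to −0.34 and −0.47 to −0.17 for the wild-type and mutated lines, −0.24 to −0.09 between them, −0.64 to −0.06 for Chd4 and −0.28 to 0.10 for Chd8.

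The intronic minus intergenic difference in serum was 0.13 with −log10 q of at least 10 and 0.0265 without mismatch. Over both media it was 0.0738 at the deposited length, 0.12 at 50%, 0.28 with −log10 q of at least 10, 0.12 without mismatch and 0.00823 within 50 bp, and on the log2 scale it was −0.20 in the control line. Left-out libraries gave 0.30 to 0.39, −0.46 to −0.28 and −0.0566 to 0.0320 in the control line, in serum and over both media.

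With −log10 q of at least 10, the changed intronic sites numbered 3689 for control line, 1209 for serum, 2511 for wild-type line, 2213 for mutated line, 1535 for wild-type against mutated line, 1698 for Chd4 shRNA1 against shluci, 1721 for Chd4 shRNA2 against shluci, 578 for Chd8 shRNA1 against shluci, 886 for Chd8 shRNA2 against shluci, against 5555, 3149, 4115, 3535, 2870, 5568, 6044, 3883, 4252. Requiring peaks to cover 50% of the central window gave 3574 for Chd4 shRNA1 against shluci, 3953 for Chd4 shRNA2 against shluci, 1530 for Chd8 shRNA1 against shluci, 2277 for Chd8 shRNA2 against shluci. Lost and gained counts taken apart moved by over 1.5 times in 13 and 12 of 27 comparisons under the settings that keep all libraries. With 1 library left out, sites lost in the control line numbered 4972 to 5907 and sites gained 4196 to 6887, and in serum 2398 to 4228 and 2367 to 4084. Then a group has 1 library and more sites qualify; lost and gained together numbered 10103 to 12219 for control line, 6136 to 7025 for serum, 8453 to 10580 for wild-type line, 8074 to 9548 for mutated line, 6607 to 8934 for wild-type against mutated line, 10392 to 11564 for Chd4 shRNA1 against shluci, 10922 to 13212 for Chd4 shRNA2 against shluci, 10441 to 11344 for Chd8 shRNA1 against shluci, 10740 to 12359 for Chd8 shRNA2 against shluci.

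Replicate numbers were shared between groups, and in the Chd4 set they also part the lists by length. Nothing in the labels says that a number marks a shared batch, and ranks of same-numbered libraries did not deviate together: over sites called by all 4 libraries of a comparison, their deviations correlated at −0.06 to 0.08. With the replicate block all 19 share differences are the same by arithmetic, since groups are balanced over the numbers (−3.98 points for the consensus share in the control line), and as no test can reach 0.05 the block says nothing about stability (exact permutation p = 0.125 for the consensus share over both media). Peak lists without reads give no precision for single peaks, so a site that was not called may be open below the calling threshold.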

Other observations

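Shares of other motifs in intronic peaks were compared between libraries with and without IAA. Consensus peaks were a smaller share of the lists with IAA, and the part of this in the shares of other motifs was not tested. The ESRRB motif was found in 3.23% and 3.25% of the intronic peaks of the untreated control-line libraries and in 3.44% and 3.48% with IAA, and in serum in 1.81% to 1.89% without and 2.06% to 2.15% with IAA. The KLF motif was found in 9.65% to 9.67% against 9.80% to 10.1% in the control line, and in 8.25% to 8.36% against 9.14% to 9.31% in serum. The AP-1 motif overlapped in the control line, at 11.1% to 11.3% and 11.3% to 11.4%, and was found in 11.3% to 11.6% against 12.4% to 12.5% in serum. The SOX motif overlapped in both media, at 9.45% to 9.58% and 9.09% to 9.48% in the control line and at 8.20% to 8.81% and 8.78% to 8.82% in serum. The GATA motif was found in 1.84% to 1.86% without and 1.789% to 1.793% with IAA in the control line, and overlapped in serum. The aryl hydrocarbon receptor motif was found in 1.37% to 1.41% against 1.304% to 1.364% in the control line, and overlapped in serum.

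The TEAD motif and the octamer differed in opposite directions in the 2 media. In the control line the TEAD motif was found in 9.70% to 9.75% of intronic peaks without IAA and 9.58% to 9.60% with IAA, and in serum in 8.62% to 8.65% without and 8.86% to 9.37% with IAA. The octamer was found in 4.66% to 4.81% without and 4.59% to 4.61% with IAA in the control line, and in 4.55% to 4.58% against 4.71% to 4.92% in serum. Most of these differences were also found in intergenic peaks. There the ESRRB motif, the TEAD motif and the octamer separated the groups in the same direction as in introns in both media, the KLF motif did so in the control line and the AP-1 motif in serum. The KLF motif overlapped in intergenic peaks of serum, at 6.87% to 7.32% and 7.26% to 7.97%. These motif shares were compared after the data had been seen, and none of the differences was tested.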
